A study of Mus musculus with 45 samples.

Results

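The clustered histone genes of the mouse limb bud are the subject here, as their transcripts appear in poly-A selected RNA. Of 34994 genes in the deposited tables, 59 had a symbol of the form Hist1h to Hist4h and were annotated as protein coding. They comprised 6 genes for linker histone H1, 14 for H2A, 16 for H2B, 10 for H3 and 13 for H4, with 51 in the Hist1 cluster, 5 in Hist2, 2 in Hist3 and 1 in Hist4. A further 3 genes of the same name pattern are annotated as pseudogenes and were left out. Limb buds came from forelimbs of CD1 mouse embryos at gestation day 13 and were kept as explants in glass bottles, with pooled limbs of male and female embryos in the same medium. Control cultures received the vehicle dimethyl sulfoxide (DMSO), and treated cultures bisphenol S (BPS), a substitute for bisphenol A, at 10 or 50 µM. RNA was taken after 3, 24 or 48 h, so the 9 groups were DMSO, 10 µM BPS and 50 µM BPS at each of the 3 times, with 5 libraries each and 45 in all. In the 48 h group with 50 µM BPS the strain label differs in each library and counts up from CD2 to CD6. These libraries were taken as CD1, the strain of the design text.

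Histone proteins package DNA: an octamer of H2A, H2B, H3 and H4 forms the nucleosome core, and H1 binds the linker DNA between nucleosomes. Most genes for these proteins are transcribed in S phase, when new chromatin is built, and their messenger RNA ends in a conserved stem-loop in place of a poly-A tail. The stem-loop is bound by the protein SLBP, and the U7 small nuclear ribonucleoprotein guides the cleavage just after it. Some clustered histone genes can also use a downstream poly-A signal, and such tailed transcripts have been described in cells that leave the cell cycle. Poly-A selection retains tailed transcripts and largely loses the others, so the levels below are those of histone RNA that came through this selection, not of all histone RNA. The part of untailed RNA carried over in these libraries was not tested.

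The stem-loop was looked for in the annotated 3′ untranslated region of each gene as a motif of 16 bases (GG, 2 of any base, CTT, 1 of any base, T, 1 of any base, AG, 2 of any base, CC), read on the coding strand of GENCODE M21 transcripts (build GRCm38, the same as mm10). It was found in 42 of the 59 members, against 0.243% of 21023 other protein-coding genes with an annotated 3′ region of at least 16 bases. The 59 include 12 models that end at or next to the stop codon and could not hold the motif. The variant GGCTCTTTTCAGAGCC was present in 22 members and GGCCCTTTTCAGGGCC in 7, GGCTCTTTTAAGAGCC in 6, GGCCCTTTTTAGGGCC in 2 and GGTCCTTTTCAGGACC in 2, and 3 other variants in 1 member each. The stem-loops of 6 members on which the results turn are shown as DNA with 5 flanking bases on either side, with the motif in capitals. They mark where the untailed transcript would be cut. Of the members with a stem-loop shown here, the models of Hist1h1c, Hist3h2ba and Hist1h2ae hold an AATAAA poly-A signal after it, as does the 3′ region of Hist2h2be, which has no stem-loop. The models of Hist1h3c and Hist1h2bk stop soon after the stem-loop, and that of Hist1h4i runs on without this hexamer.
Hist1h1c (chr13:23739512-23739527, plus strand): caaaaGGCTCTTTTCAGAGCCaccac
Hist3h2ba (chr11:58949349-58949364, plus strand): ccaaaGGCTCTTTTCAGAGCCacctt
Hist1h4i (chr13:22040966-22040981, minus strand): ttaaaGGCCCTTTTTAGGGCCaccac
Hist1h2ae (chr13:23570668-23570683, minus strand): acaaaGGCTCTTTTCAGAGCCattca
Hist1h2bk (chr13:22036300-22036315, plus strand): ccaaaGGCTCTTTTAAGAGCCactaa
Hist1h3c (chr13:23745047-23745062, minus strand): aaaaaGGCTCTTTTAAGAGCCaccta

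The annotated models end in 4 ways. In 12 members the model stops at or next to the stop codon and holds at most 2 bases of 3′ region. In 20 it ends within 100 bases of the stem-loop, among them Hist1h2bk (30 bases after it) and Hist1h3c (74 bases). A further 22 run on for more than 100 bases past the stem-loop, among them Hist1h1c (840 bases), Hist3h2a (1643 bases), Hist1h4i (330 bases), Hist3h2ba (169 bases) and Hist1h2ae (151 bases). In the last 5 the 3′ region has no stem-loop, among them Hist1h2bc, whose model is spliced to a downstream exon, and Hist2h2be with 2192 bases of 3′ region. An AATAAA hexamer lies after the stem-loop in 13 of the 42 models that hold one, and 82.7% of the other protein-coding genes have this hexamer in their 3′ region. These shares are not measured alike. In 20 of the 42 models at most 100 bases follow the stem-loop, whereas the other genes were searched over the whole 3′ region.

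The upstream 250 bases were read from RefSeq promoters (GRCm38.p6), which matched 54 of the 59 members by symbol. Of these 54, 44 held CCAAT on either strand, against 34.5% of 27025 promoters of the same length, and 27 held TATAAA, against 13% of promoters. The octamer ATTTGCAT was present in 10 members, against 1.61%, and these were 6 H2A and 4 H2B genes. AAACACA, known as the H1 box, was present in 7 members, against 6.22%, and 5 of them were among the 6 H1 genes. None of these 4 motifs contains another, and the windows of neighbouring H2A and H2B genes overlap, so the counts are not independent. The windows of Hist1h1c, Hist1h2bk and Hist3h2ba are shown because their transcripts moved differently in culture, with every match to the 4 motifs on either strand in capitals. A match is a string of letters and not a shown binding site.
Hist1h1c (chr13:23738557-23738806, plus strand): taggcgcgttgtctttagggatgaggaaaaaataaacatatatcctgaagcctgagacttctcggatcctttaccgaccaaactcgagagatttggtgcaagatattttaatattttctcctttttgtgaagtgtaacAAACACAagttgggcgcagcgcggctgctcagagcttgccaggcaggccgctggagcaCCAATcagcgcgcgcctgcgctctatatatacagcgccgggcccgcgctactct
Hist1h2bk (chr13:22035571-22035820, plus strand): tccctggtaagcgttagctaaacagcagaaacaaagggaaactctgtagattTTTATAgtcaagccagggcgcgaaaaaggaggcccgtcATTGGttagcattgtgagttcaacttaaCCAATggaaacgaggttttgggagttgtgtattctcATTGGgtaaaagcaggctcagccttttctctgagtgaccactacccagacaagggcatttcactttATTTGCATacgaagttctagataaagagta
Hist3h2ba (chr11:58948661-58948910, plus strand): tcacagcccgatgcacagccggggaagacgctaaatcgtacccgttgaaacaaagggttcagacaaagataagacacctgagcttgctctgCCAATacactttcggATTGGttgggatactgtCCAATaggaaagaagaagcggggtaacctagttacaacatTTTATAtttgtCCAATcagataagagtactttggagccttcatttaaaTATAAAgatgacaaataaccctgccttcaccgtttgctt

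Counted reads per library ran from 15.2 M to 23.1 M (median 18.2 M). Levels are given as CPM, the read count scaled to library size, with the SD over n = 5 libraries. A count of 3 reads, used as the floor for a level of 0, corresponds to 0.13 to 0.197 CPM in single libraries. The forelimb transcription factor gene Tbx5 stood at 301.9 ± 13.5 CPM in control at 3 h and its hindlimb counterpart Tbx4 at 22.9 ± 1.40 CPM. Whether the 5 libraries of a group are separate cultures or litters is not stated, and the p-values therefore reflect only how these libraries vary, part of which may be technical.

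The 59 genes together took between 0.00659% and 0.0155% of the reads of a library. Only 9 reached a mean of 1 CPM over the 45 libraries, 50 stayed below it, and 20 had at least 1 read in each library. Per kilobase of the deposited gene length the highest mean levels over the 45 libraries were those of Hist3h2ba, an H2B gene of the Hist3 cluster, with 19.5 CPM per kb, and Hist1h1c, encoding a linker histone of somatic cells, with 18.4. Hist1h2bc, an H2B gene, followed with 11.1, Hist1h4i, an H4 gene, with 9.16, Hist1h3c, an H3 gene, with 3.62 and Hist2h2be, an H2B gene with a long model, with 3.49. At the other end, Hist1h2br had 2 reads in all 45 libraries. The filter on low counts left 12 members tested in each of the 15 comparisons of 2 groups, 38 in at least 1 of them and 21 in none. The highest group mean among those 21 was 0.584 CPM, for Hist2h3c2, an H3 gene, in control at 48 h.

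The first comparison asked how the histone transcripts changed over time in control culture. The summed level of the 59 genes was 128, 125, 147, 145 and 148 CPM in the control libraries at 3 h, 97.7, 88.9, 81.1, 85.9 and 78.0 at 24 h, and 116, 94.4, 95.9, 93.0 and 92.1 at 48 h. All 5 libraries at 3 h lay above all 10 later ones. Over the 58 members with any read at 3 or 24 h, the mean was lower at 24 h in 52, while 53.4% of all genes with a read were lower. From 24 to 48 h it was lower in 32 of 56 (50.4% of all genes). In bulk RNA of this kind, fewer cells of a type and less RNA per cell cannot be told apart.

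**Figure D1:**
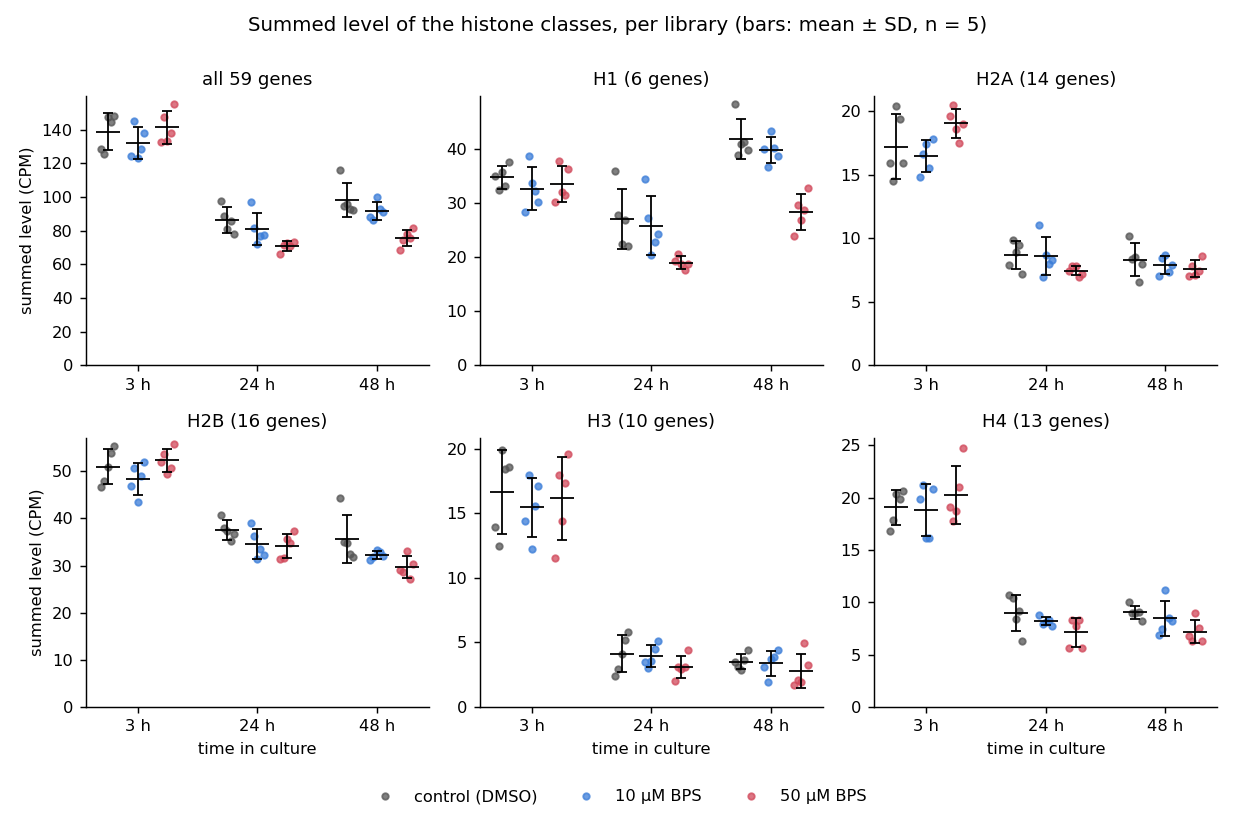
Summed CPM of all 59 clustered histone genes and of the 5 classes (y axis, linear, from 0) at 3, 24 and 48 h in control, 10 µM and 50 µM BPS cultures. Points are libraries and bars are the mean ± SD of 5. H3 fell from 16.7 to 4.10 CPM in control between 3 and 24 h, whereas H1 was at 27.0 CPM at 24 h and 41.8 CPM at 48 h.

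The classes differed in how much of their 3 h level was left. Summed H3 transcripts went from 16.7 ± 3.25 CPM at 3 h to 4.10 ± 1.43 at 24 h and 3.48 ± 0.584 at 48 h. The H4 sum was 19.1 ± 1.67, 8.98 ± 1.76 and 9.04 ± 0.634 CPM, and the H2A sum 17.2 ± 2.54, 8.65 ± 1.10 and 8.31 ± 1.28 CPM at the 3 times. H2B lost less, with 51.0 ± 3.70, 37.6 ± 2.06 and 35.6 ± 5.02 CPM, and its libraries at 3 h still lay above those at 24 h. H1 differed from the other 4 classes in direction at the end, with 34.8 ± 2.07 CPM at 3 h, 27.0 ± 5.56 at 24 h and 41.8 ± 3.72 at 48 h. The class sums follow a few genes with many reads. The top 5 by mean CPM (Hist1h1c, Hist1h2bc, Hist3h2ba, Hist2h2be and Hist1h4i) gave 57.2% of the summed histone CPM of control at 3 h, 75.1% at 24 h and 78.4% at 48 h. The other 54 members together went from 59.4 ± 8.86 CPM to 21.5 ± 1.75 and 21.3 ± 1.71 CPM, without overlap between 3 h and the later times.

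Of the 28 members tested between 3 and 24 h of control culture, 20 were lower and 0 higher at an adjusted p below 0.05 (edgeR quasi-likelihood test, Benjamini-Hochberg). Over all 16536 genes of this comparison 20.1% were called lower and 20% higher. The median log2 change of the 28 tested members was -1.80, and that of all genes tested was -0.01. Members tested mainly because they were high at 3 h had to differ, so this count describes only the members that had enough reads. From 3 to 48 h, 20 of 30 tested members were lower and 1 higher, where 24.8% of genes were called lower and 24.5% higher. From 24 to 48 h, 2 of 16 were higher and 2 lower, where 9.44% and 6.55% of genes were called. The authors' deposited tables list 30 members lower at 24 h than at 3 h, and 32 lower and 1 higher at 48 h than at 3 h, with 2 higher and 2 lower from 24 to 48 h. Those tables call 22%, 28% and 10.1% of their genes in either direction in these comparisons.

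Among the H1 genes, Hist1h1c (ENSMUSG00000036181, chr13:23738808-23740367, plus strand) has the most reads. It was at 29.3, 28.4, 31.2, 27.5 and 31 CPM in control at 3 h, at 33.8, 26.5, 21.3, 24.8 and 20.4 CPM at 24 h, and at 46.0, 37.6, 39.0, 38.6 and 36.8 CPM at 48 h. The 48 h libraries lay above all the earlier ones, and the 24 h libraries were spread around the 3 h range. Hist1h1c rose by a log2 change of 0.64 ± 0.119 (SE) from 24 to 48 h (edgeR adjusted p = 0.00154) and was 0.43 ± 0.076 above its 3 h level at 48 h (edgeR adjusted p = 0.00018), the only member higher in that comparison. Its change from 3 to 24 h was -0.22 ± 0.110 and did not pass (edgeR adjusted p = 0.121).

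The mean of all 6 H1 genes was lower at 24 h than at 3 h, and at 48 h that of each but Hist1h1c was still below its 3 h value. Hist1h1e, another somatic linker histone, was at 1.92 ± 0.766 CPM at 3 h, 0.545 ± 0.137 at 24 h and 0.814 ± 0.349 at 48 h, and fell by 1.79 ± 0.322 on the log2 scale in the first day (edgeR adjusted p = 0.000136). Its annotated transcript overlaps Hist1h2be, so reads of these genes cannot be fully separated. Hist1h1d, also a somatic linker histone, was at 1.43, 1.70, 1.31, 1.01 and 2.08 CPM at 3 h and at 0.959, 0.756, 0.475, 1.10 and 0.656 CPM at 24 h. The libraries of these times overlapped, and its change of -0.93 ± 0.292 passed (edgeR adjusted p = 0.0143).

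In the H2A class, Hist3h2a was at 5.52, 4.54, 5.96, 5.04 and 6.29 CPM at 3 h, at 5.92, 6.74, 5.28, 6.13 and 4.98 CPM at 24 h and at 5.64 ± 1.10 CPM at 48 h. The ranges overlap, and the log2 change of 0.08 ± 0.139 at 24 h did not pass (edgeR adjusted p = 0.673). Its model overlaps the gene Trim17, and the libraries are not stated to keep strand. Hist1h2ae, in the Hist1 cluster, was at 2.81, 3.18, 3.98, 5.23 and 3.48 CPM at 3 h and at 0.790, 0.567, 1.16, 0.307 and 0.492 CPM at 24 h. No 24 h library reached the lowest 3 h library, and Hist1h2ae fell by 2.46 ± 0.282 on the log2 scale (edgeR adjusted p = 4.87e-07). Hist1h2ag went from 2.06 ± 0.633 CPM to 0.385 ± 0.304 at 24 h and 0.380 ± 0.310 at 48 h. This gene shares 76.2% of its 100-base words with other genes and is uncertain as a single gene.

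The H2B class held the most varied members. Hist1h2bk (ENSMUSG00000062727, chr13:22035870-22036345, plus strand) was at 1.73, 2.04, 3.69, 2.65 and 2.44 CPM in control at 3 h, at 0.338, 0.063, 0.106, 0.307 and 0.438 CPM at 24 h, and at 0.112, 0.188, 0.253, 0.061 and 0 CPM at 48 h. All libraries at 3 h lay above all later ones, and the 12 reads left over the 5 libraries at 48 h give a level near the floor. Hist1h2bk fell by 3.28 ± 0.365 on the log2 scale by 24 h (edgeR adjusted p = 3.13e-07), and its log2 change by 48 h was -4.23 ± 0.424 (edgeR adjusted p = 3.58e-07). Hist1h2bj, another H2B gene, went from 2.38 ± 0.542 CPM to 0.501 ± 0.371 and 0.318 ± 0.172 CPM.

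Hist1h2bc (ENSMUSG00000018102, chr13:23684199-23692908, plus strand) dipped and came back. It was at 14.3, 15.7, 16.2, 16.6 and 16.1 CPM at 3 h, at 11.2, 11.3, 9.55, 9.26 and 10.6 CPM at 24 h, and at 19.9, 16.5, 14.4, 13.4 and 14.0 CPM at 48 h. The 24 h libraries lay below all others, and the 48 h libraries spanned the 3 h range. Hist1h2bc fell by 0.60 ± 0.095 in the first day (edgeR adjusted p = 2.79e-05), rose by 0.58 ± 0.120 in the second (edgeR adjusted p = 0.00306), and differed by -0.01 ± 0.109 between 3 and 48 h (edgeR adjusted p = 0.959). Its head-to-head neighbour Hist1h2ac, whose start site lies 250 bases away on the other strand, went from 1.32 ± 0.516 CPM to 0.489 ± 0.132 and 0.842 ± 0.304 CPM.

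Hist2h2be and Hist3h2ba moved in the opposite order, with no call from 3 to 24 h and lower levels on the second day. Hist2h2be (chr3:96221119-96223738, plus strand) was at 9.08, 9.45, 10.9, 11 and 11.5 CPM at 24 h and at 8.37, 8.20, 6.89, 7.26 and 7.31 CPM at 48 h in control. Its groups did not overlap, and it fell by 0.46 ± 0.111 (edgeR adjusted p = 0.0096). Hist3h2ba (chr11:58948920-58949533, plus strand) was at 16.7, 14.8, 13.6, 11.4 and 11.4 CPM at 24 h and at 13.5, 7.68, 10.7, 7.26 and 7.63 CPM at 48 h. Replicate 1 of the later group overlaps the earlier one. Hist3h2ba fell by 0.55 ± 0.171 (edgeR adjusted p = 0.039), a call that was lost in 6 of the 10 fits that left out 1 library.

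**Figure D2:**
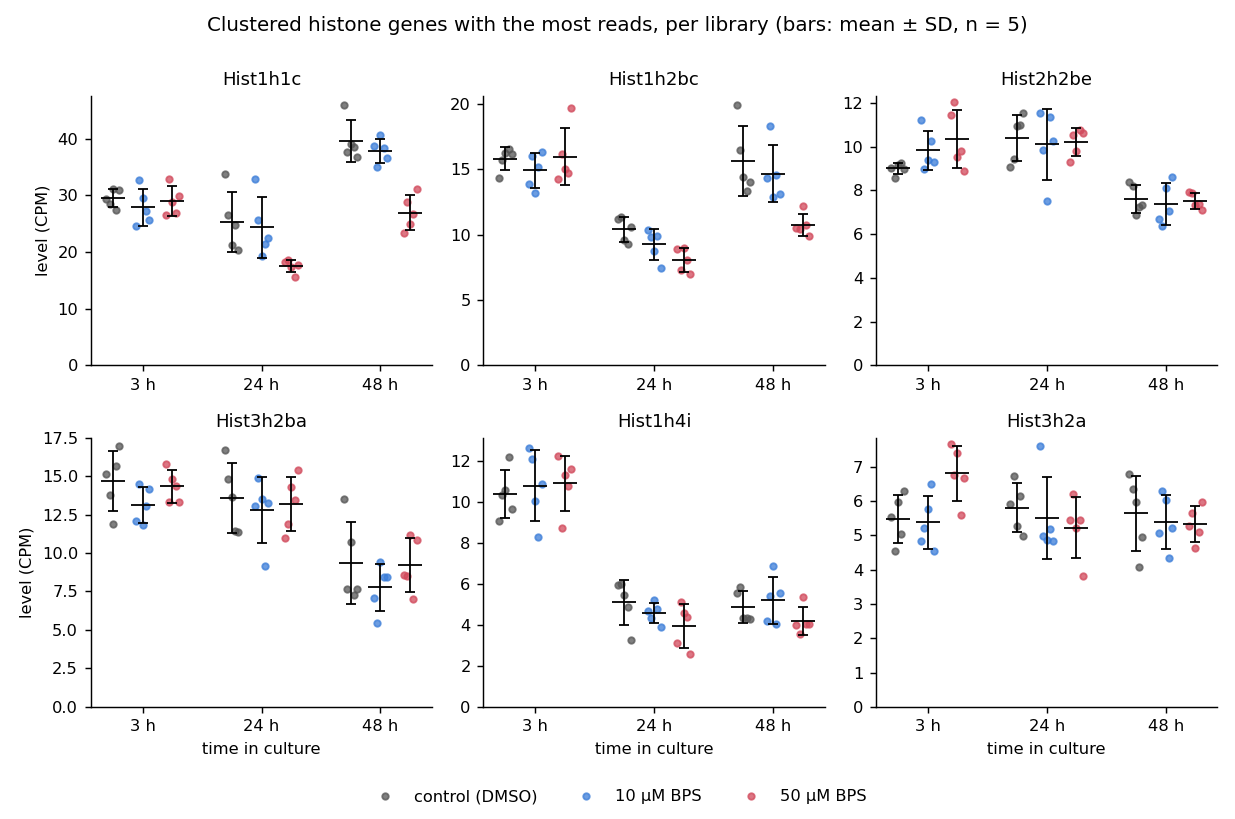
CPM per library (y axis, linear, from 0, with its own scale for each gene) of the 6 clustered histone genes with the most reads, at 3, 24 and 48 h in control, 10 µM and 50 µM BPS cultures. Points are libraries and bars are the mean ± SD of 5. Hist1h1c and Hist1h2bc have their lowest points at 24 h, and at 48 h their libraries with 50 µM BPS lie below those of control.

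Of the H3 genes, Hist1h3c (ENSMUSG00000069310, chr13:23744973-23745602, minus strand) was at 3.40, 5.16, 5.92, 5.61 and 7.52 CPM at 3 h, at 0.451, 0.504, 0.897, 1.53 and 0.875 CPM at 24 h, and at 0.899, 0.801, 0.861, 0.427 and 0.480 CPM at 48 h. The 3 h libraries stood apart from the rest. Hist1h3c fell by 2.69 ± 0.275 on the log2 scale in the first day (edgeR adjusted p = 1.47e-07), with -0.29 ± 0.365 on the second day, which did not pass (edgeR adjusted p = 0.653). Hist1h3e went from 2.12 ± 0.657 CPM to 0.432 ± 0.206 and 0.373 ± 0.241 CPM, and Hist1h3a from 1.94 ± 0.970 CPM to 0.327 ± 0.177 and 0.233 ± 0.146 CPM. Hist1h3h, at 2.67 ± 0.668 CPM and then 0.590 ± 0.250 and 0.266 ± 0.184 CPM, shares 92% of its 100-base words with other genes and is uncertain as a single gene.

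Hist1h4i (ENSMUSG00000060639, chr13:22040636-22041362, minus strand) is the H4 gene with the most reads. Its level was 9.07, 10.3, 10.6, 12.2 and 9.65 CPM at 3 h, 5.92, 5.98, 5.44, 4.85 and 3.28 CPM at 24 h and 5.56, 5.84, 4.31, 4.33 and 4.27 CPM at 48 h. The earlier libraries did not overlap the later ones. Hist1h4i fell by 1.02 ± 0.147 in the first day (edgeR adjusted p = 9.44e-06) and was lower than at 3 h by a log2 change of -1.08 ± 0.131 at 48 h (edgeR adjusted p = 3.33e-06). Hist1h4d went from 2.12 ± 0.272 CPM to 0.6 ± 0.154 and 0.619 ± 0.227 CPM, and Hist1h4k from 1.16 ± 0.397 CPM to 0.497 ± 0.209 and 0.664 ± 0.204 CPM. Both were lower at 24 h than at 3 h (edgeR adjusted p = 8.96e-06 and 0.00983). Hist1h4k shares 64.3% of its 100-base words with other genes and is uncertain as a single gene.

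The 10 µM and 50 µM cultures were compared over time within each dose, and these time courses share no library with that of control. In 10 µM cultures 23 of 30 tested members were lower at 24 h than at 3 h and 0 higher (21.5% of genes lower, 21.4% higher). In 50 µM cultures 25 of 28 were lower and 0 higher (22.3% lower, 21.1% higher). Of the 26 members tested at each dose, 17 were lower at each of the 3 doses, as were 14.7% of all genes tested at each. From 3 to 48 h, 24 of 30 members were lower and 1 higher at 10 µM (27.3% and 27.7% of genes), and 26 of 28 lower and 0 higher at 50 µM (29.2% and 28.3%). Tested or not, 55 of the 58 members with any read had a lower mean at 48 h than at 3 h at 50 µM (52.7% of all genes). Of the members tested at each dose, 16 of 26 were lower at each from 3 to 48 h, as were 20.7% of all such genes. As in control, members tested mainly because they were high at 3 h had to differ. The counts of tested members therefore describe only those with enough reads and do not measure agreement between doses.

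The sizes of the changes are set side by side for several members. Hist1h2bk fell by 3.28 ± 0.365 in control, 3.06 ± 0.439 at 10 µM and 3.17 ± 0.333 at 50 µM on the log2 scale from 3 to 24 h. Hist1h3c fell by 2.69 ± 0.275, 2.57 ± 0.236 and 2.77 ± 0.249. For Hist1h4i the changes were -1.02 ± 0.147, -1.24 ± 0.131 and -1.47 ± 0.160. Some members with more reads differed more between doses. Hist1h1c changed by -0.22, -0.20 and -0.73 and Hist3h2a by 0.08, 0.03 and -0.38, both called only at 50 µM. The changes of Hist1h2bc were -0.60, -0.69 and -0.98. From 3 to 48 h Hist1h1c changed by 0.43 in control, 0.44 at 10 µM and -0.09 at 50 µM, where it was not called. The interaction tests given below called 0 members. Hist2h2be, Hist3h2ba and Hist2h4 were not called at any dose from 3 to 24 h.

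From 24 to 48 h the calls were the same 4 genes at each dose, 2 higher and 2 lower of the 12 members tested at each, where 7.66% and 4.97% of all such genes were higher or lower at each dose. At 10 µM 2 of 13 members were higher and 2 lower (13.5% and 10.6% of genes), and at 50 µM also 2 of 13 higher and 2 lower (14.5% and 13.9%). Hist1h1c rose by 0.64 ± 0.119 in control, 0.63 ± 0.113 at 10 µM and 0.62 ± 0.084 at 50 µM. Hist1h2bc rose by 0.58 ± 0.120, 0.66 ± 0.115 and 0.41 ± 0.108. Hist2h2be fell by 0.46 ± 0.111, 0.45 ± 0.131 and 0.44 ± 0.101, and Hist3h2ba by 0.55 ± 0.171, 0.73 ± 0.145 and 0.53 ± 0.127. The calls of Hist2h2be and Hist3h2ba depended on which libraries were used. Without replicate 1, 2 or 4 Hist2h2be at 10 µM was at -0.36, -0.41 and -0.39 and did not pass (edgeR adjusted p = 0.0659 to 0.1). In control Hist3h2ba did not pass without replicate 1, 2 or 3 at 24 h or replicate 2, 4 or 5 at 48 h, with changes of -0.46 to -0.54 (edgeR adjusted p = 0.0717 to 0.106).

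**Figure D3:**
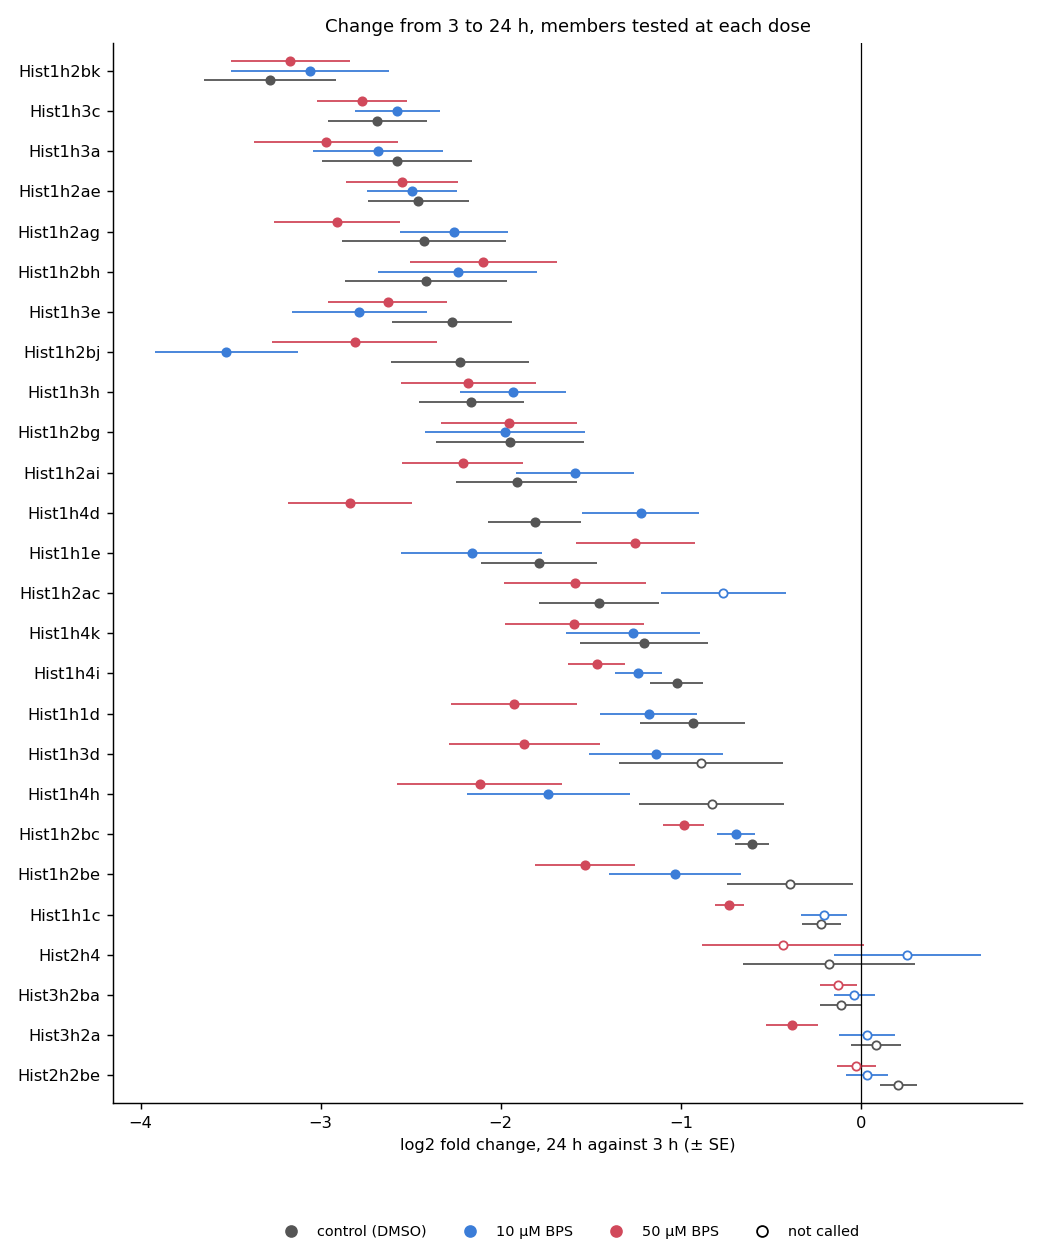
Log2 fold change from 3 to 24 h (x axis) with its SE for the 26 clustered histone genes tested in control, 10 µM and 50 µM BPS cultures, ordered by the control value. Filled points passed an adjusted p below 0.05 in edgeR and open points did not. In control the values run from -3.28 for Hist1h2bk to 0.21 for Hist2h2be.

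The 4 kinds of gene model showed different sums over time. In control at 3 h the 20 members whose model ends within 100 bases of the stem-loop summed to 17.3, 18.0, 27.6, 21.0 and 22.7 CPM, and at 24 h to 3.95, 4.22, 4.96, 6.32 and 4.27 CPM. This is a 4.50-fold lower mean, with no overlap. The 12 members whose model stops at or next to the stop codon went from 9.74 ± 1.83 to 2.93 ± 0.437 CPM, 3.33-fold lower. The 22 members whose model runs on past the stem-loop went from 82.0 ± 5.53 to 57.7 ± 8.64 CPM, 1.42-fold lower, and the 5 without a stem-loop from 25.7 ± 0.896 to 20.9 ± 0.817 CPM, 1.23-fold lower. At 48 h the first 2 of these sums were 5.12-fold and 4.40-fold below 3 h, and the last 2 were 1.20-fold and 1.09-fold below with overlapping libraries. Direction was shared more widely than size: the mean was lower at 24 h than at 3 h in 19 of 20, 11 of 12 and 20 of 22 members of the first 3 kinds, and in 2 of the 4 members without a stem-loop that had reads. The sum of the third kind rests largely on Hist1h1c, Hist3h2ba and Hist1h4i, and that of the last on Hist1h2bc with Hist2h2be. From 3 to 24 h in control the median log2 changes of tested members were -2.43, -1.91, -1.02 and -0.60 for the 4 kinds in this order. These medians cover 7, 3, 15 and 3 members with enough reads. No test of the difference between the kinds was made. The models say where an annotated transcript ends and not which end was used in these cultures.

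**Figure D4:**
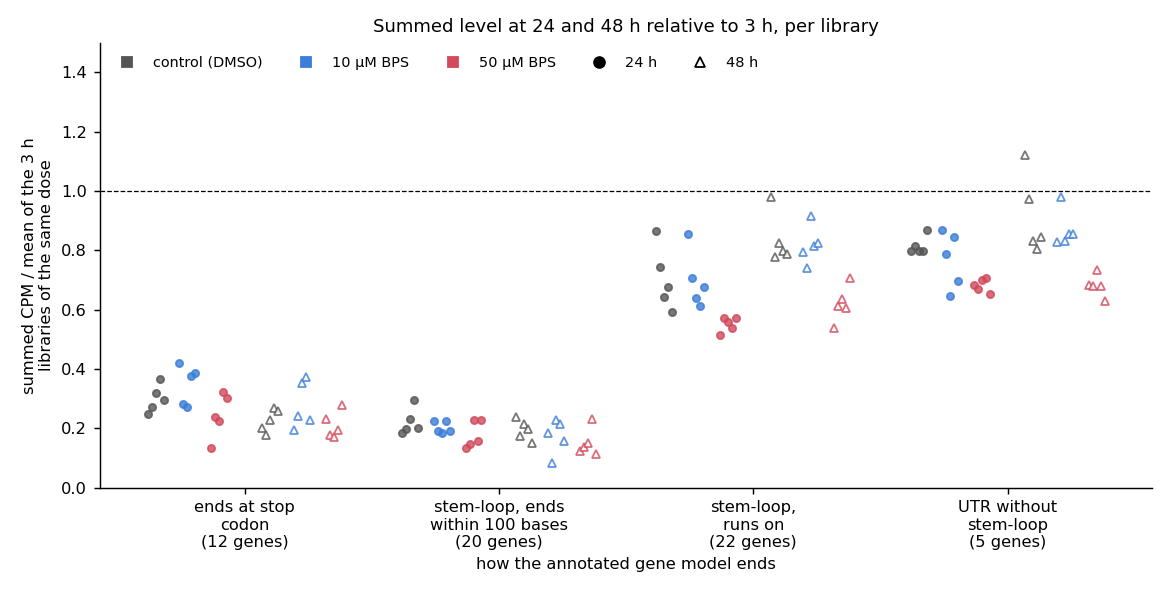
Summed CPM of the members of each kind of gene model at 24 h (circles) and 48 h (triangles), divided by the mean of the 3 h libraries of the same dose (y axis, linear, from 0; the dashed line is no change). Each point is a library of control, 10 µM or 50 µM BPS. The sums of the 2 kinds on the left, with 12 and 20 genes, lie below those with 22 and 5 genes at every dose.

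RNAs that carry no poly-A tail, such as small nuclear and vault RNAs, were followed in the same libraries. Whether their level tracks the carry-over of untailed histone RNA was not tested. Of 23 listed genes 14 were in the tables. Their summed level ran from 10.3 to 15.3 CPM in control at 3 h, 7.05 to 20.6 at 24 h and 9.33 to 24.9 at 48 h, and these ranges overlap, with 2, 4 and 4 of the 14 at 0. Most of this sum, with means of 13.3, 14.9 and 16.9 CPM, came from 1 gene. That gene, Rn7sk, a nuclear RNA that holds back transcription elongation, was at 11.1 ± 1.66, 13.0 ± 5.53 and 14.8 ± 5.22 CPM. Its change from 3 to 48 h of 0.41 ± 0.211 did not pass (edgeR adjusted p = 0.125). The part of carry-over in the histone levels was not tested.

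Genes for other steps of histone supply were followed over the same time, in which 20.1% of all genes were called lower and 20% higher. Of 32 genes for histone pre-mRNA processing and histone gene transcription 18 were lower and 0 higher at 24 h than at 3 h in control, with a median log2 change of -0.20. Slbp, the stem-loop binding protein, fell from 94.8 ± 5.73 to 62.8 ± 3.29 CPM (log2 change -0.60 ± 0.055, edgeR adjusted p = 2.16e-08), and was at 64.2 ± 2.46 CPM at 48 h. Zfp473, a zinc finger protein of the U7 complex, went from 5.09 ± 0.452 to 2.42 ± 0.616 CPM. Of the histone variant genes outside the clusters 10 of 12 tested were lower and 0 higher, with a median of -0.40, and Cenpa, the H3 variant of centromeres, went from 124.2 ± 5.57 to 53.3 ± 5.99 CPM. H2afx, the H2A variant phosphorylated at DNA breaks, went from 257.9 ± 20.1 to 141.5 ± 10.4 CPM. Of 25 histone chaperone genes 17 were lower and 3 higher (median -0.21). Chaf1a, a subunit of the assembly factor that follows the replication fork, went from 77.5 ± 3.58 to 44.5 ± 2.28 CPM.

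Cell cycle genes moved at the same time. In control 39 of 43 genes of S phase and DNA replication were lower at 24 h and 0 higher (median -0.56), and 26 of 26 genes of G2 and mitosis were lower (median -1.13). Mcm5, a subunit of the replicative helicase, went from 182.8 ± 9.48 to 112.6 ± 6.76 CPM, and Ccnb1, the mitotic cyclin B1, from 115.4 ± 6.98 to 49.6 ± 2.63 CPM. Among genes linked to cell cycle exit 7 of 18 were higher and 6 lower. Cdkn1a, an inhibitor of cyclin-dependent kinases, went from 62.6 ± 4.99 CPM at 3 h to 104.7 ± 7.45 at 24 h and 223.8 ± 23.5 at 48 h. From 24 to 48 h 2 of the 43 S phase genes were lower and 0 higher, and 2 of the 26 mitotic genes were higher.

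Markers of several cell types moved over the same interval. From 3 to 24 h in control, 9 of 10 cartilage, 5 of 5 tested osteoblast, 5 of 5 tested muscle and 5 of 8 macrophage markers were higher, and 1 macrophage marker was lower. Of the erythroid markers 7 of 10 were lower, of the endothelial markers 7 of 7, and of the limb mesenchyme markers 5 of 8, with 2 of 6 tested epidermal markers higher and 2 lower. Summed erythroid markers ran from 2277 to 2736 CPM at 3 h and from 1204 to 2167 CPM at 24 h, and summed cartilage markers from 4078 to 4682 and from 10000.5 to 10814 CPM, with 0 markers of these lists at 0 reads. Their part in the histone changes was not tested.

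The next comparisons asked whether BPS changed histone transcripts relative to control of the same time. At 10 µM edgeR called 0 members, out of 38 tested at 3 h, 14 tested at 24 h and 16 tested at 48 h, where 0% of genes were called in either direction. DESeq2 also called 0 at each time. At an unadjusted p below 0.05 edgeR counted 1, 0 and 2 members, where 1.98%, 2.99% and 2.62% of all genes were below it. Hist1h1c was at 37.8 ± 2.16 CPM with 10 µM BPS at 48 h and at 39.6 ± 3.70 in control (log2 change -0.07 ± 0.076). At 50 µM and 3 h 0 of 37 members were called by edgeR or by DESeq2, where 0.0299% of genes were called higher and 0.0239% lower. There 3 members had an unadjusted p below 0.05, as had 7.98% of all genes.

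At 48 h with 50 µM BPS, 2 of 15 tested members were lower than control and 0 higher, where 0.522% of 16663 genes were called lower and 0.48% higher. Hist1h1c was at 23.3, 28.8, 24.9, 26.8 and 31.1 CPM with 50 µM BPS against 46.0, 37.6, 39.0, 38.6 and 36.8 in control. The groups did not overlap, and Hist1h1c was lower by a log2 change of -0.55 ± 0.088 (edgeR adjusted p = 0.00554). Hist1h2bc was at 10.5, 10.5, 12.1, 10.8 and 9.93 CPM against 19.9, 16.5, 14.4, 13.4 and 14.0 in control. All treated libraries lay below all control libraries (-0.54 ± 0.115, edgeR adjusted p = 0.0371). Control replicate 1 was the highest library for both genes, and without it the changes were -0.49 for Hist1h1c (edgeR adjusted p = 0.00199) and -0.44 for Hist1h2bc (edgeR adjusted p = 0.027). The Hist1h2bc call was lost without control replicate 2 and without any 1 of the 5 treated libraries, at adjusted p from 0.0564 to 0.106.

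The other 13 tested members did not pass at 48 h. Hist2h2be and Hist3h2ba changed by -0.02 ± 0.105 and -0.03 ± 0.178. Hist1h4i changed by -0.23 ± 0.157, and the largest estimate was that of Hist1h2ac, -0.83 ± 0.380 (edgeR adjusted p = 0.367). The median of the 15 tested members was -0.23. Tested or not, the mean was lower than control in 43 of the 57 members with any read (52.1% of all genes). The summed level of the 59 genes ran from 68.4 to 81.4 CPM with 50 µM BPS and from 92.1 to 116 CPM in control. For the 54 members outside the top 5 by mean CPM these ranges were 14.1 to 19.9 and 18.6 to 22.8 CPM, which overlap. The authors' deposited table lists the count of 2 members lower at 48 h with 50 µM BPS, 1 lower at 24 h and 0 at 3 h, where it calls 1.45%, 0.893% and 0.134% of its genes in either direction.

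At 24 h with 50 µM BPS 0 of 14 tested members were called by edgeR (0.127% of genes lower, 0.248% higher), while DESeq2 called 1. At an unadjusted p below 0.05 edgeR counted 2 members, where 12.4% of all genes were below it. Hist1h1c was at 18.2, 18.6, 17.4, 15.7 and 17.8 CPM against 33.8, 26.5, 21.3, 24.8 and 20.4 in control. The groups did not overlap, and the change was -0.53 ± 0.115 (edgeR adjusted p = 0.0542). That fit did not use the replicate numbers. They were taken to pair the libraries of this comparison in a further fit, though the labels do not say what a number marks. Deviations from the group means correlated at 0.121 to 0.359 between same-numbered libraries and at up to 0.183 between others. With the replicate number as a block, Hist1h1c was called at -0.51 (edgeR adjusted p = 0.00126). Control replicate 1 was the highest library, and without it the change was -0.41 (edgeR adjusted p = 0.117). Without replicate 5, the lowest control library, it was called at -0.60 (edgeR adjusted p = 0.011), and over all fits with 1 library left out the adjusted p ran from 0.011 to 0.167. It was also called without the filter (edgeR adjusted p = 9.9e-05) and in 1 fit of 45 libraries (edgeR adjusted p = 0.00989). Hist1h2bc was at 8.93, 7.28, 9.0, 8.05 and 7.02 CPM against 11.2, 11.3, 9.55, 9.26 and 10.6. It changed by -0.36 ± 0.112, which did not pass (edgeR adjusted p = 0.174). Tested or not, the mean at 24 h was lower than control in 38 of the 58 members with any read (50.8% of all genes). The summed level of the 59 genes ran from 65.9 to 73.4 CPM with 50 µM BPS and from 78.0 to 97.7 CPM in control at 24 h, without overlap. At 3 h Hist1h1c and Hist1h2bc changed by -0.02 ± 0.073 and 0.01 ± 0.094 and did not pass.

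**Figure D5:**
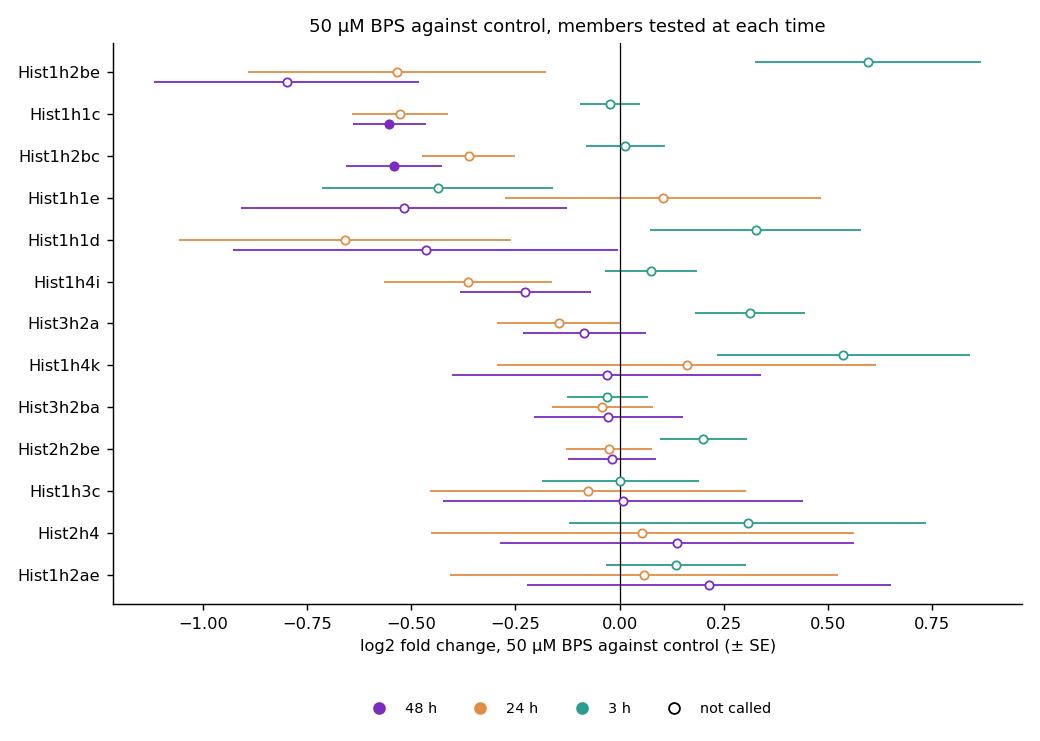
Log2 fold change of 50 µM BPS against control (x axis) with its SE at 3, 24 and 48 h, for the clustered histone genes tested at each of the 3 times, ordered by the 48 h value. Filled points passed an adjusted p below 0.05 in edgeR and open points did not. The 2 filled points are Hist1h1c and Hist1h2bc at 48 h, near -0.55 and -0.54.

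Whether the time course itself differed between dose and control was tested as an interaction over 18432 genes, of which 45 were members. With edgeR 0 members were called for 10 µM or 50 µM, at 24 or 48 h. The share of genes called was 0% in 3 of these 4 tests and, for 50 µM at 48 h, 0.0597% higher and 0.0326% lower. At an unadjusted p below 0.05 the counts of members were 1 and 0 for 10 µM and 8 and 5 for 50 µM, at 24 and 48 h. Of all genes 2.34% and 2.87% were below it for 10 µM, and 6.58% and 8.34% for 50 µM. For 50 µM at 48 against 3 h the difference was -0.55 ± 0.148 for Hist1h2bc (edgeR adjusted p = 0.128) and -0.53 ± 0.148 for Hist1h1c (edgeR adjusted p = 0.163). DESeq2 called 1 member there, Hist1h2bc (DESeq2 adjusted p = 0.0499).

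In the comparisons of 50 µM BPS with control, markers of some other cell types were lower as well. At 48 h 4 of 8 macrophage markers and 2 of 7 endothelial markers were lower and 0 higher. Summed macrophage markers ran from 128 to 200 CPM with 50 µM BPS and from 192 to 266 CPM in control, and summed endothelial markers from 160 to 199 and from 182 to 254 CPM. At 24 h 1 of 8 macrophage markers and 0 of 7 endothelial markers were lower, with sums of 93.6 to 118 against 116.5 to 156 CPM for macrophages. Summed endothelial markers at 24 h ran from 178.6 to 186.8 CPM with 50 µM BPS and from 188.5 to 225.1 CPM in control, without overlap. Lyz2, a macrophage lysozyme, was at 38.4 ± 9.26 CPM with 50 µM BPS and 60.5 ± 8.37 in control at 48 h. No marker of these lists was at 0. Their part in the lower Hist1h1c and Hist1h2bc levels was not tested. Of the 43 S phase genes and the 26 mitotic genes 0 were called at 24 or 48 h with 50 µM BPS, with medians of -0.05 at both times for S phase genes and of -0.06 and -0.09 for mitotic genes. Of the 32 genes of histone pre-mRNA processing and transcription 0 were called at either time. Over all genes 0.127% were called lower and 0.248% higher at 24 h, and 0.522% and 0.48% at 48 h. Counts of 0 in lists of this size lie near these shares and do not show that the genes were unchanged.

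Of the 59 genes 10 pairs lie head to head with start sites 175 to 301 bases apart, each an H2A next to an H2B gene, and such pairs share their upstream region. In control the pair of Hist1h2ag and Hist1h2bj was at 2.06 and 2.38 CPM at 3 h and at 0.385 and 0.501 CPM at 24 h. The pair of Hist1h2ae and Hist1h2bg was at 3.74 and 1.05 CPM at 3 h, and at 0.663 and 0.266 CPM at 24 h. Both members of these pairs were lower. In the pair of Hist1h2ac and Hist1h2bc both were lower, by different amounts: Hist1h2ac fell by 1.45 ± 0.332 on the log2 scale and Hist1h2bc by 0.60 ± 0.095. Both means were also lower at 24 h in the pairs of Hist1h2bl and Hist1h2ai, Hist1h2ak and Hist1h2bn, Hist1h2ah and Hist1h2bk, and Hist1h2bf and Hist1h2ad. In the remaining pairs the means went in opposite directions. Hist2h2ac had 0.130 CPM at 3 h and 0.0358 at 24 h, beside Hist2h2be at 9.0 and 10.4 CPM. Hist2h2ac is near the floor, with 75 reads over the 45 libraries and none in 15 of them. Hist1h2an went from 0.194 to 0 CPM beside Hist1h2bp at 0.225 and 0.240, and Hist1h2ao from 0.0870 to 0.0337 CPM beside Hist1h2bq at 0.0122 and 0.0222, with few or no reads per library in both pairs.

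Sequence identity limits what can be said of single members. In 22 of the 59 genes more than 50% of the 100-base words of the transcript occur in another gene, and 17 overlap another annotated gene. Of the genes described above, Hist1h1c shares 5.1% of its words, Hist3h2ba 4.9%, Hist2h2be 0%, Hist1h4i 15.1%, Hist1h2bc 25.4% and Hist1h3c 28.4%, while Hist1h2bk shares 70.8%.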

How the data were processed

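Poly-A selected RNA of 45 libraries in 9 groups of 5 was sequenced. Per the submitters' processing notes, the authors worked on mm10 with STAR 2.5, HTSeq 0.6.1, CASAVA 1.8 and DESeq2 (version given as 2). Annotation release and read length: not given in the sources used here. All 9 deposited tables, each of 10 libraries, hold raw read counts per gene, per the file headers. They also hold FPKM values, the authors' scaled counts (a normalised signal), a log2 fold change and p-values of the authors' own comparisons, which were used only where the deposited tables are named. The counts were joined by gene identifier, and 0 of the 1319925 control counts that several tables share differed.

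Counts were tested with edgeR 4.0.16 (R 4.3.3, limma 3.58.1) by the quasi-likelihood test with robust dispersion, TMM scaling, filterByExpr and Benjamini-Hochberg adjustment over all genes tested, two-sided, with a call at an adjusted p below 0.05. Each comparison was fitted on its 10 libraries, and interactions on all 45. CPM used TMM factors over the 45 libraries. The fits were tested on simulated data. Between libraries of a group the lowest chi-square per degree of freedom was 4.6, so none looked like the same library sequenced again. This value cannot exclude libraries prepared separately from the same RNA. Reads without molecular identifiers are not independent molecules, so the floor of 3 reads covers counting error only.

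Gene models came from GENCODE M21, and promoters from RefSeq. The members and the lists were chosen with earlier results of these data known. Genes were named by level (the 3 with the highest mean CPM in each class), by change (at most 5 rises and 5 falls per comparison at a mean of at least 1 CPM) and, for the lists, by smallest p. Hist1h2ac, Hist1h2bg, Hist2h2ac, Hist2h4, Hist2h3c2 and Hist1h2br were named after their values were seen, as were the genes named only in head-to-head pairs. Same-numbered libraries were taken as paired where the deviations from the group means correlated above 0.1 in every pair. The main fits held the group only and did not use this pairing, which entered only the fits with the replicate number as a block. This was so for 10 µM against control at 24 h (0.143 to 0.36), 50 µM at 3 h (0.152 to 0.349) and 50 µM at 24 h (0.121 to 0.359). Libraries of different numbers reached 0.241, 0.352 and 0.183 there, so these ranges overlap. The labels do not say what a replicate number marks. The alternatives were DESeq2 1.42.0, upper-quartile scaling, no filter on low counts, 1 fit of 45 libraries, the replicate number as a block and leaving out libraries.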

Additional observations from a re-analysis of the deposited data

Results flagged for a closer look

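Within groups of 5 libraries, 19 members and the summed level of the 59 were searched for a library far from the other 4 (Dixon's test at the 95% level). The 19 are the 3 highest members of each class and the members named by the size of their change, and the others were not searched. Of 180 groups 13 held such a library, or 7.22%, where chance gives about 1 in 20, and in each of the 13 it was the highest library.

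In control at 48 h, replicate 1 had 46.0 CPM of Hist1h1c, where the others had 36.8 to 39.0, and a summed level of the 59 genes of 116 CPM, where the others had 92.1 to 95.9. In the same group replicate 5 had 0.800 CPM of Hist1h3e against 0.225 to 0.305. The results for 50 µM BPS at 48 h are given with and without control replicate 1.

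With 10 µM BPS, replicate 1 at 24 h had 7.62 CPM of Hist3h2a against 4.83 to 5.18, and replicate 5 at 24 h had 0.893 CPM of Hist1h1e against 0.197 to 0.345. In Hist1h2bj replicate 4 at 24 h had 0.525 CPM against 0.0863 to 0.176. At 48 h replicate 3 had 1.28 CPM of Hist1h1d against 0.704 to 0.749.

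With 50 µM BPS at 24 h, replicate 5 had 1.70 CPM of Hist1h2ae against 0.324 to 0.637 and 0.643 CPM of Hist1h3e against 0.231 to 0.284. Replicate 3 had 0.513 CPM of Hist1h2ag against 0.185 to 0.234. At 48 h replicate 4 had 1.64 CPM of Hist1h3c against 0.296 to 0.676 and 0.795 CPM of Hist1h3a against 0 to 0.177, and replicate 3 had 5.34 CPM of Hist1h4i against 3.53 to 4.02.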

How the results depend on the processing

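The number of members called changed with the filter and the tool; dropping the filter tests more members, and the cause of the other changes was not tested. From 3 to 24 h in control the 20 calls became 34 without the filter and 31 in 1 fit of 45 libraries. From 3 to 48 h in control the 21 calls became 33 with DESeq2, 35 without the filter and 35 in 1 fit of 45 libraries, and at 50 µM the 26 became 41 without the filter. For 50 µM against control at 24 h the count of 0 became 1 with DESeq2, without the filter, in 1 fit of 45 libraries and with the replicate block, and ran from 0 to 1 when 1 library was left out. At 48 h the count of 2 became 1 with the replicate block, where Hist1h2bc had an adjusted p of 0.0921, and ran from 1 to 2 when 1 library was left out. The interaction of 50 µM at 48 h went from 0 to 1 with DESeq2. The replicate block moved the other counts by at most 1, with 21 in control from 3 to 24 h. In the comparisons not taken as paired, whether libraries of the same number share more than the number is not known.

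For the genes named, 589 of 611 alternative values of 52 results kept their direction and their side of the threshold, 16 lost the call, 6 gained it and 0 changed sign. Hist2h2be from 24 to 48 h at 10 µM lost its call without replicate 1, 2 or 4 (edgeR adjusted p = 0.0659 to 0.1), and Hist3h2ba in control without 6 of 10 libraries (edgeR adjusted p = 0.0717 to 0.106). Depth limits most members, as 50 of 59 had under 1 CPM.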

Other observations

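The 3 pseudogenes of the same name pattern were left out of the counts above. Hist1h2al, annotated as a processed pseudogene (chr13:51202727-51203065), was at 1.57 ± 0.593 CPM in control at 3 h, 2.02 ± 0.318 at 24 h and 2.28 ± 0.300 at 48 h (SD, n = 5). With 10 µM BPS it was at 1.35, 1.45 and 2.53 CPM and with 50 µM BPS at 1.30, 1.38 and 1.91 CPM. Of the 15 comparisons of 2 groups it passed in 1, higher at 48 h than at 3 h with 10 µM BPS (log2 change 0.92 ± 0.231, edgeR adjusted p = 0.00204). Hist1h2aj and Hist3h2bb-ps had group means of at most 0.213 and 0.241 CPM.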
